A study of Rattus norvegicus with 24 samples.

Results

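The change of the ANIT effect between 24 h and 120 h was followed in all 24 liver samples of the series and across 13438 genes, each read from the brightest probe set that names that gene alone. Male Sprague Dawley rats, 8 weeks old, received corn oil or ANIT (alpha-naphthylisothiocyanate) at 50 mg/kg in corn oil, once, into the stomach. They were killed 24 h or 120 h later, which made 4 groups of 6 separate rats: vehicle and ANIT at 24 h, and vehicle and ANIT at 120 h. Every rat, vehicle rats included, had been fasted overnight for about 18 h and injected with 100 mg/kg of the DNA label BrdU about 2 h before necropsy. The labels place peak injury at 24 h and resolution at 120 h, so the comparison asks which early responses had ended by then, which had turned the other way and which appeared only late.

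ANIT is conjugated to glutathione in hepatocytes and carried into bile, where it injures bile duct epithelium and, with it, neighbouring hepatocytes. Livers in cholestasis are known to lower bile acid uptake and synthesis, partly through the bile acid receptor FXR (Nr1h4) and its target SHP (Nr0b2), and to form new ductules lined by cells with cholangiocyte markers. Acute liver injury also raises acute phase proteins and the chaperones of the endoplasmic reticulum (ER), and the sterol synthesis pathway follows the sterol supply of the cell.

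The effect at a time is the mean log2 value of ANIT rats minus that of vehicle rats killed at the same time. The change is the effect at 120 h minus the effect at 24 h, so a rise that ended gives a negative change and a fall that ended a positive one. A gene was called at an adjusted p under 0.05 in limma over all 13438 genes. Errors after ± are standard errors of the fit, with 6 rats in each group. Levels are given as the lowest, the median and the highest rat.

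In bulk liver, fewer cells of a type and less RNA per cell cannot be told apart. The hepatocyte markers Alb, Ttr, Apoa1, Serpina1 and Cps1 averaged 12.59 to 12.89 on all arrays, near the top of the scale. They averaged 12.80 to 12.89 in vehicle and 12.59 to 12.80 in ANIT rats at 24 h. At 120 h the ranges were 12.75 to 12.84 and 12.67 to 12.78, and 1 of these markers had a called change, higher. Arrays differed in signal. The mean level of 9 spiked hybridisation controls ran from 10.16 to 11.48, and 6 arrays had a narrower spread of values: 3 of vehicle rats at 24 h and 3 of ANIT rats at 120 h. Both of those groups enter the change with a plus sign. The change in the control level itself was 0.66 (exact permutation p = 0.025, adjusted p = 0.038 over 3 array measures). RNA quality was read from beta-actin, as its 3' probe signal over its 5' signal in log2. This ratio changed by -0.35 (exact permutation p = 0.0010, adjusted p = 0.0031), since ANIT rats stood at 3.12 ± 0.07 (SD, n = 6) at 24 h and 2.76 ± 0.15 at 120 h and vehicle rats at 2.84 ± 0.05 and 2.83 ± 0.08. ANIT rats at 24 h ran from 2.98 to 3.18 in this ratio and no other group went above 2.98, so a model holds the ratio and that group apart poorly. A call lost with the ratio can come from a less precise estimate or from a smaller effect. The part of these array measures in the results was not tested. Counts with them in the model stand beside some main counts, and others are in the closing section on processing.

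Most of what ANIT had changed at 24 h was no longer called at 120 h. The change was called for 1924 genes, 14.3% of those tested, of which 448 were higher and 1476 lower. ANIT differed from vehicle for 2451 genes at 24 h (18.2%; 1738 higher and 713 lower) and for 272 at 120 h (2.02%; 69 higher and 203 lower). ANIT rats at the 2 times differed for 2832 genes (21.1%). The vehicle groups differed for 1 gene (0.00744%), Gpt, the liver enzyme alanine aminotransferase, named after its value was seen, at 1.04 ± 0.16 higher at 120 h (adjusted p = 0.0074). That single call does not show that the vehicle groups were alike. Between them, 1639 genes had an unadjusted p under 0.05 in limma, and 175 were called without rat 1 of the 24 h vehicle group.

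The share of higher calls in the change depended on the array level. It was 23.3% with the groups alone and 56.9% once the control level was a covariate (1475 genes or 11.0% of those tested, 839 or 6.24% higher and 636 or 4.73% lower). The share was 51.1% with array SD, 44.1% with the beta-actin ratio (438 genes), 36.5% after quantile normalization, 12.1% with a common median and 60.6% without the 6 narrow arrays (852 genes). Over all genes, higher and lower changes numbered 193 and 245 with the beta-actin ratio and 516 and 336 without the narrow arrays. List counts under these fits, given below, stand against those numbers. Leaving out rat 1 of the 24 h vehicle group raised the count to 3148 genes, 825 of them higher. With the control level, 8.13% of genes were called higher and 10.3% lower at 24 h, and at 120 h 1.65% in each direction. The median change over all genes was -0.02, and -0.13 with a common median or without dim genes. Since the share moved this far, the number of genes in each direction is not read as a result. Most genes described kept their class, as sorted below, with the control level in the model. That follows in part from the naming rule, which took class genes only from those that did. Over all genes, 505 of 1037 that returned, 86 of 343 that fell back without a bound and 40 of 88 late genes kept their class. Of the genes described, Abcb11 did not keep its class. Gpnmb and Apoa4 kept their calls, but their 24 h interval passed the 1.5-fold bound used below to sort late genes. Postn and Elovl5 also kept their calls, with a 24 h interval past that bound with the groups alone and within it with the control level.

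**Figure D1:**
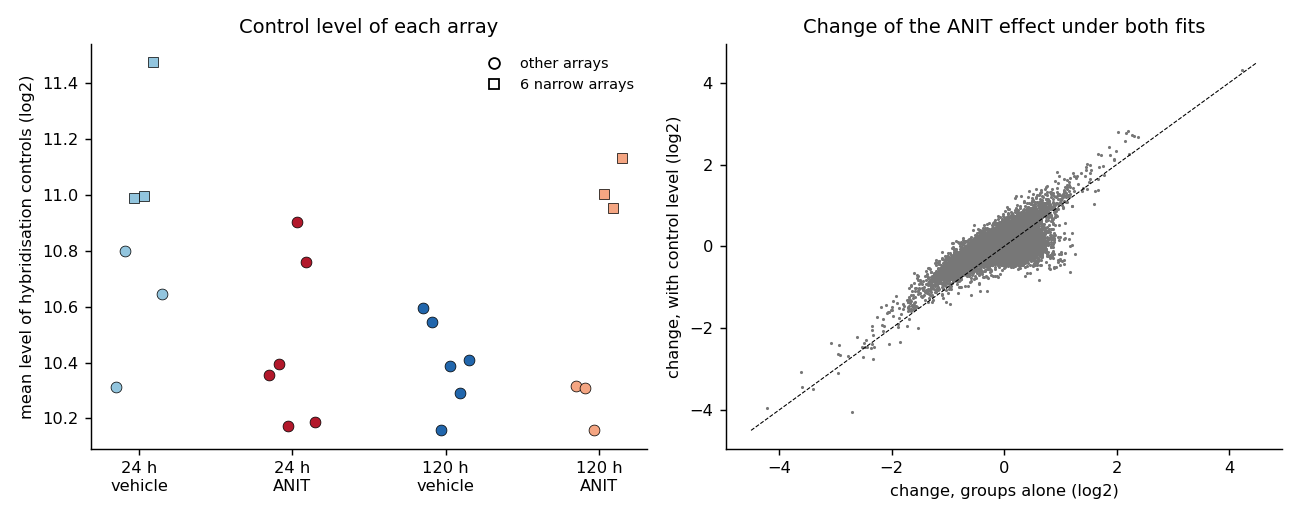
Left, the mean log2 level of the spiked hybridisation controls on each array by group, with squares for the 6 narrow arrays, which sit at the top of the 24 h vehicle and 120 h ANIT groups. Right, the change of the ANIT effect in log2 for each of 13438 genes with the groups alone (horizontal) and with the control level in the model (vertical), with the dashed line where both are equal. Points spread on both sides of that line.

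Genes were sorted by their calls and intervals. A gene had returned when it was called at 24 h, its change was called in the opposite direction, it was not called at 120 h, and the 95% interval of its 120 h effect lay within 1.5-fold of vehicle. That held for 1037 genes, 820 that had been higher at 24 h and 217 that had been lower, and 505 of them kept the class with the control level. Another 343 genes fell back without a 120 h interval that narrow. A further 42 overshot, with called effects of opposite sign at both times, and 8 returned only in part. Late genes, called at 120 h, not called at 24 h with an interval within 1.5-fold, and with a called change, numbered 88, with another 19 whose 24 h interval was wider. Tspan8, Postn, Serpina7, Elovl5, Egr1, Obp3 and Abhd2, described below, were among those 19, so a 24 h effect past 1.5-fold was not excluded for them. At both times, with no called change, 65 genes were called in the same direction. Another 956 genes were called at 24 h and not at 120 h without a called change, so no return was shown for them. A called change alone was found for 387 genes, and a call at 120 h alone for 50.

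Rises and falls of at least 2-fold at 24 h had different medians at 120 h. Of 206 such rises, with a median 24 h effect of 1.27, the median 120 h effect was -0.05 and 2 were still called in the same direction. Of 87 such falls, with a median of -1.3, the median 120 h effect was -0.40 and 18 were still called lower. In the median gene, 29.2% of the fall and -3.9% of the rise was left at 120 h (19.2% and 6.2% with the control level in the model). The genes of each set were chosen on the 24 h effect, which the change contains, and the gap between the sets was not tested.

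**Figure D2:**
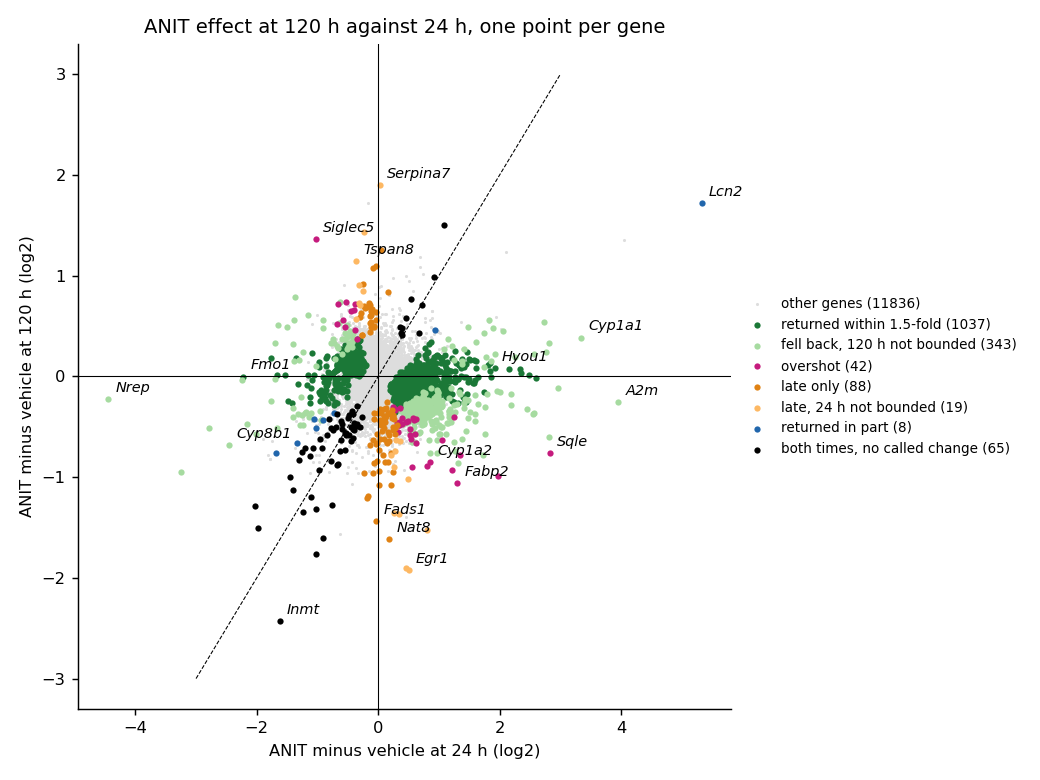
Each point is 1 of 13438 genes, with the ANIT effect at 24 h (log2) on the horizontal and at 120 h on the vertical axis, coloured by class; the dashed line marks equal effects at both times. Points gather along the horizontal axis, where 24 h effects had ended, with overshooting genes in the upper left and lower right and late genes along the vertical axis. Lcn2, at 5.33 and 1.72, lies farthest to the right.

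Most ER chaperone genes of the list rose at 24 h, and none of them was called at 120 h. These proteins fold secreted proteins and are induced when unfolded proteins build up. Of 20 measured genes of the list, 17 were higher at 24 h (12.9% of all genes were) and the change was lower for 16 (11.0% of all genes). The median effect was 0.82 at 24 h and 0.03 at 120 h, against 0.00 and -0.01 over all genes. With no limma call at 120 h, 1 gene, higher, had an unadjusted p under 0.05 there. The change was called for 14 genes with the control level, 9 with the beta-actin ratio and 12 without the narrow arrays.

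A known control sequence of such genes is the ER stress element, CCAAT and CCACG spaced by 9 bases. It was searched for on both strands in the 250 bases before the transcript start of RefSeq (GRCr8), matched for 11057 of the 13438 genes. It was found in 7 of 17 matched promoters of the list (41.2%) and in 17 of all 11057 (0.15%). The 7 were Hspa5, Creld2, Dnajc3, Hsp90b1, Calr, Canx and Xbp1, named for the match and not for their values. A match describes the letters of this window and does not show a working site. Of those 7, 6 were called higher at 24 h and 5 had a called change; Xbp1, a transcription factor of the unfolded protein response, had an effect of 0.21 ± 0.18 at 24 h and 0.08 ± 0.18 at 120 h, with neither called. Creld2, 1 of those 5, had a 120 h interval too wide to place it within 1.5-fold of vehicle. In the windows shown, capitals mark the element, and CGTGG with ATTGG is its reverse complement. The windows of 4 of the 5 genes with a called change are shown, with that of Calr left out. They are Hspa5 (chr3:38452766-38453015, plus strand), Creld2 (chr7:121789134-121789383, plus), Dnajc3 (chr15:102432417-102432666, plus) and Hsp90b1 (chr7:23012294-23012543, minus), each written 5' to 3' along the gene.
Hspa5: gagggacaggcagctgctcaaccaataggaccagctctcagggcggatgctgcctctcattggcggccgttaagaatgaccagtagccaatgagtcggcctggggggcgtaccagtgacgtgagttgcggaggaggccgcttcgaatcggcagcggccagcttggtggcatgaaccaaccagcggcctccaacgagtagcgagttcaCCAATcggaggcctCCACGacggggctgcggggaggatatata
Creld2: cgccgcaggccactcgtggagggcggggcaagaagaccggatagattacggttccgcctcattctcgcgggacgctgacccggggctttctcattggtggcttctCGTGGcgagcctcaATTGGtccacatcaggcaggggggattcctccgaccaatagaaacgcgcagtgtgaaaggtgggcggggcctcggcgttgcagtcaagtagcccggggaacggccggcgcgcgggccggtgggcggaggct
Dnajc3: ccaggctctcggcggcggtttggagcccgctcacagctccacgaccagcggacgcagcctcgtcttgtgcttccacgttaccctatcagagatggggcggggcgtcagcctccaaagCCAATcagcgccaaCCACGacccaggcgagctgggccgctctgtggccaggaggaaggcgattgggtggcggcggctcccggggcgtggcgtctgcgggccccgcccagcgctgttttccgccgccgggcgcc
Hsp90b1: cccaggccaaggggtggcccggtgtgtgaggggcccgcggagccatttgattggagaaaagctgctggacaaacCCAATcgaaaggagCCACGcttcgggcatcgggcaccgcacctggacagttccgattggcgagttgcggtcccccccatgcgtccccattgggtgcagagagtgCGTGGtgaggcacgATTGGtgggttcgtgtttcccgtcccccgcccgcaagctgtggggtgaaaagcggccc
In Hsp90b1 the window holds 2 matches. 3 other motifs were searched in the same windows: CACCCCAC, a sterol response core, was in 1 of 16 cholesterol synthesis promoters and 2.24% of all, TGACNNNGC, the antioxidant response core, in 5 of 19 Nrf2 target promoters (26.3%) and 12.4% of all, and TTATGTAA, the D-box, in 1 of 16 clock gene promoters and 0.47% of all.

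Among these genes Hspa5, the chaperone BiP, ran from 10.91 through 10.97 to 11.26 in vehicle rats and from 11.68 through 11.79 to 12.17 in ANIT rats at 24 h. At 120 h it ran from 10.71 through 11.03 to 11.18 and from 10.99 through 11.15 to 11.28. All 6 ANIT rats were above all vehicle rats at 24 h, and the groups overlapped at 120 h. Its change was -0.67 ± 0.14 (adjusted p = 0.0020), which was not called without the narrow arrays (-0.56, adjusted p = 0.065). Creld2, a secreted ER stress protein, rose 5.92-fold at 24 h (2.57 ± 0.18) and stood at 0.22 ± 0.18 at 120 h (change -2.34 ± 0.25, adjusted p = 1.2e-06). The changes of Hsp90b1 (GRP94) and Dnajc3, an inhibitor of the stress kinase PERK, were -0.95 ± 0.17 and -0.67 ± 0.13 (adjusted p = 0.00037 and 0.0010); that of Dnajc3 was not called with the beta-actin ratio.

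Hyou1, a large chaperone of the ER lumen, had levels of 7.13, 7.36 and 7.62 in vehicle and 8.89, 9.21 and 9.68 in ANIT rats at 24 h. The levels were 7.25, 7.62 and 7.99 against 7.46, 7.69 and 7.94 at 120 h. The groups stood apart at 24 h and overlapped at 120 h. Its effect went from 1.92 ± 0.14 to 0.08 ± 0.14, a change of -1.84 ± 0.20 (adjusted p = 1.3e-06), and a 2nd probe set gave -1.08. Dnajb11, a co-chaperone of BiP, went from 1.19 ± 0.09 to -0.04 ± 0.09 (change -1.23 ± 0.12, adjusted p = 4.7e-07).

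Among ATF4 targets and other single genes, several rises had also ended. Asns, asparagine synthetase and a target of ATF4, was 6.04-fold higher at 24 h (2.60 ± 0.23), with a 120 h interval from -0.49 to 0.46. Atf4 itself, the transcription factor of that response, changed by -0.90 ± 0.15 (adjusted p = 0.00027), a call that was lost with the beta-actin ratio (adjusted p = 0.093). Over the list of 17 genes, 8 were higher at 24 h (12.9% of all genes), and 1 was higher and 2 lower at 120 h (0.513% and 1.51% of all genes). The change was lower for 8 (11.0% of all genes), with 5 lower changes under the beta-actin ratio. 5 genes of the list were classed as returned. Without the narrow arrays no ATF4 target was lower at 120 h in limma, with 2 at an unadjusted p under 0.05.

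Nr0b2, the repressor SHP that FXR induces and that lowers bile acid synthesis, had levels of 5.79, 6.54 and 7.79 in vehicle and 8.27, 8.75 and 9.79 in ANIT rats at 24 h. At 120 h the levels were 6.82, 7.08 and 7.42 against 6.92, 7.15 and 7.31. Every ANIT rat lay above the vehicle rats at 24 h and within their range at 120 h. The change was -2.32 ± 0.35 (adjusted p = 9.0e-05). The 120 h intervals of Nr0b2, Asns and Timp1 came near the 1.5-fold bound, and these genes were classed as returned in 26, 27 and 28 of 34 settings, with their change called in all of them. Alpl, the alkaline phosphatase that rises in cholestasis, changed by -1.89 ± 0.23 (adjusted p = 6.6e-06).

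Tubb6, a beta tubulin, changed by -2.47 ± 0.32 (adjusted p = 1.4e-05), although its other probe set gave -0.18. The keratin Krt18, an intermediate filament of hepatocytes and duct cells, went from 1.16 ± 0.13 to -0.01 ± 0.13. Ccn2, the matrix-associated growth factor CTGF, went from 1.59 ± 0.20 to -0.06 ± 0.20, and Timp1, an inhibitor of matrix proteases, from 1.86 ± 0.24 to -0.01 ± 0.24. All 4 of these changes were called (adjusted p = 1.4e-05, 0.00012, 0.00025 and 0.00051).

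Acute phase proteins, which hepatocytes secrete in inflammation, showed 21 of 27 genes higher at 24 h (12.9% of all genes were) and 2 higher at 120 h (0.513% of all genes). A lower change was called for 14 (11.0% of all genes). Their median effect went from 0.28 to 0.02. The count of lower changes was 8 with the control level, 3 with the beta-actin ratio and 5 without the narrow arrays. Orm1 (orosomucoid) changed by -0.81 ± 0.14 and Saa4 (a serum amyloid A) by -0.76 ± 0.11 (adjusted p = 0.00027 and 7.5e-05); the call of Orm1 was lost with the beta-actin ratio (adjusted p = 0.081). A2m, alpha-2-macroglobulin, had levels of 6.19, 7.01 and 7.59 in vehicle and 10.16, 10.82 and 11.46 in ANIT rats at 24 h, and of 5.23, 6.13 and 7.57 against 5.59, 6.04 and 6.40 at 120 h. At 24 h the groups stood apart and at 120 h all ANIT rats were within the vehicle range, which was wide. Its change of -4.21 ± 0.46 (adjusted p = 1.4e-06) left a 120 h interval from -0.93 to 0.41, too wide to place it within 1.5-fold.

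**Figure D3:**
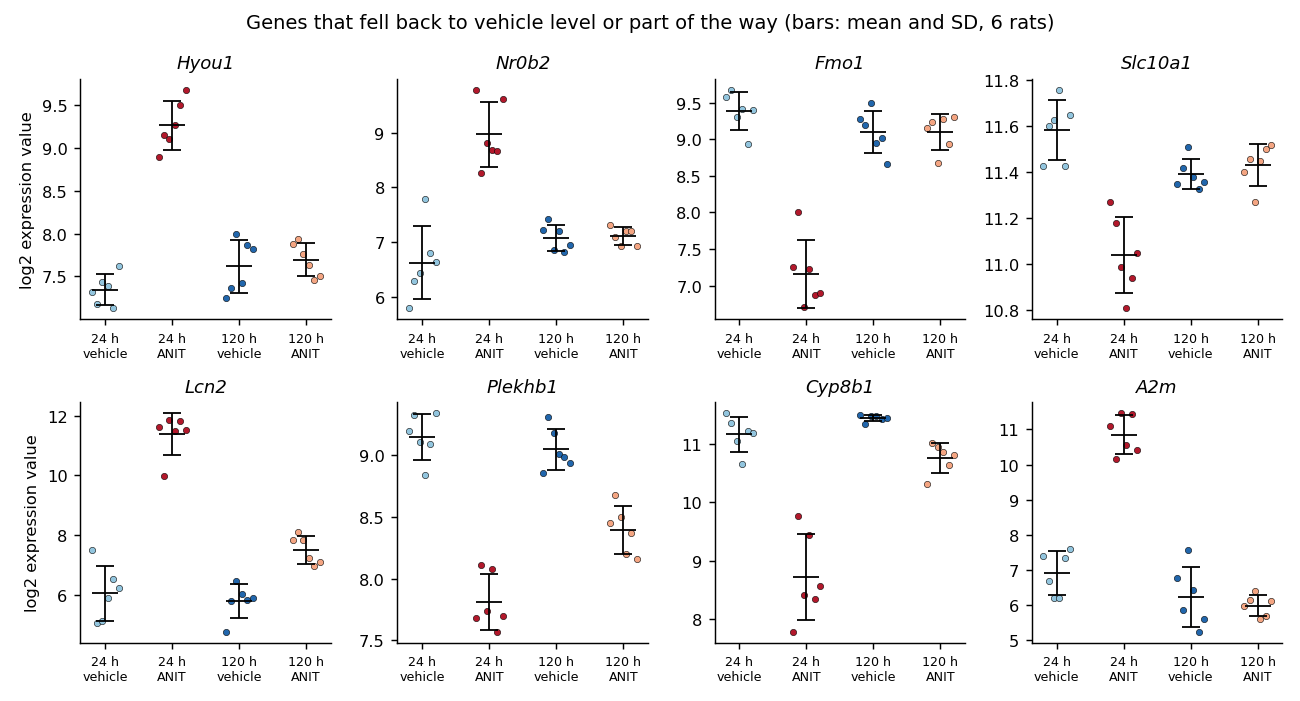
Each panel shows the log2 value of 1 gene in every rat (points) of the 4 groups, with the mean and SD of 6 rats as bars. The ANIT rats of Hyou1, Nr0b2, Fmo1, Slc10a1 and A2m overlap with vehicle at 120 h, while those of Lcn2, Plekhb1 and Cyp8b1 stand apart from vehicle in all 6 rats.

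Falls of bile acid and drug handling genes ended for some members and not for others. Of 7 hepatocyte uptake transporters, 5 were lower at 24 h (5.31% of all genes were), 2 were lower at 120 h (1.51% of all genes) and 3 had a higher change (3.33% of all genes). The median effect was -0.54 at 24 h and -0.24 at 120 h. Without the narrow arrays none was called at 120 h in limma, where 1, lower, had an unadjusted p under 0.05. Slc10a1, the sodium-dependent bile acid carrier NTCP, had levels of 11.43, 11.61 and 11.76 in vehicle and 10.81, 11.02 and 11.27 in ANIT rats at 24 h. At 120 h the levels were 11.33, 11.37 and 11.51 against 11.27, 11.45 and 11.52. The ANIT rats were below all vehicle rats at 24 h and overlapped with them at 120 h, with a change of 0.58 ± 0.12 (adjusted p = 0.0014).

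Slco1b2, a carrier of organic anions, changed by 0.68 ± 0.14 (adjusted p = 0.0017), and its other probe set by 1.36; the call was lost with the beta-actin ratio (adjusted p = 0.097) and without the narrow arrays (adjusted p = 0.10). Slco1a4, a related carrier, went from -1.39 ± 0.25 to 0.56 ± 0.25, not called at 120 h (adjusted p = 0.31), with a change of 1.95 ± 0.35 (adjusted p = 0.00052). The groups of Slco1a4 overlapped at both times.

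Bile acid synthesis genes were lower at 24 h for 7 of 14 (5.31% of all genes), and 4 had a higher change (3.33% of all genes). These counts were 4 and 2 with the beta-actin ratio and 5 and 2 without the narrow arrays. None was called at 120 h in limma, while 3 lower and 1 higher had an unadjusted p under 0.05. Cyp27a1, the sterol 27-hydroxylase of the alternative pathway, went from -0.71 ± 0.08 to 0.05 ± 0.08 (change 0.77 ± 0.12, adjusted p = 8.4e-05). Cyp8b1, the sterol 12-alpha-hydroxylase that makes cholic acid, ran from 10.66 through 11.21 to 11.53 in vehicle and from 7.78 through 8.49 to 9.77 in ANIT rats at 24 h. It ran from 11.35 through 11.47 to 11.51 and from 10.31 through 10.84 to 11.02 at 120 h. All 6 ANIT rats were below all vehicle rats at 120 h, where the effect of -0.68 ± 0.23 was not called (adjusted p = 0.13), and the change was 1.77 ± 0.32 (adjusted p = 0.00050).

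Baat, which joins bile acids to glycine or taurine, changed by 0.40 ± 0.10 (adjusted p = 0.0086), a call lost with the beta-actin ratio, with a common median and without the narrow arrays (adjusted p = 0.13, 0.078 and 0.057). Cyp7a1, the rate-limiting enzyme of bile acid synthesis, was lower at 24 h (-1.78 ± 0.44, adjusted p = 0.0057), had an effect of -0.82 ± 0.44 at 120 h (adjusted p = 0.42) and a change of 0.96 ± 0.63 that was not called (adjusted p = 0.31). The 24 h call was lost with the beta-actin ratio (adjusted p = 0.10) and without the narrow arrays (adjusted p = 0.078). Its rats overlapped at both times: 6.64, 8.18 and 9.10 against 5.13, 6.28 and 7.33 at 24 h, and 7.53, 8.14 and 9.34 against 6.32, 7.39 and 8.64 at 120 h. Nr1h4, the bile acid receptor FXR, went from -1.16 ± 0.20 to 0.01 ± 0.20 (change 1.17 ± 0.28, adjusted p = 0.0065). With the beta-actin ratio its change of 1.13 was not called (adjusted p = 0.14).

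Drug-metabolising enzymes moved both ways. Of 22 P450 and phase I genes, the change was higher for 8 (3.33% of all genes) and lower for 7 (11.0% of all genes), with 9 and 4 under the control level, 4 and 4 under the beta-actin ratio and 7 and 5 without the narrow arrays. Fmo1, a flavin monooxygenase, had levels of 8.94, 9.40 and 9.68 in vehicle and 6.70, 7.06 and 8.01 in ANIT rats at 24 h, and of 8.66, 9.11 and 9.50 against 8.68, 9.19 and 9.30 at 120 h. A fall of 4.67-fold was followed by full overlap, with a 120 h interval from -0.37 to 0.36 and a change of 2.22 ± 0.25 (adjusted p = 2.3e-06). The steroid hydroxylases Cyp2a2 and Cyp3a2 changed by 0.77 ± 0.11 and 0.75 ± 0.13 (adjusted p = 3.8e-05 and 0.00049), both from falls at 24 h.

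Cyp17a1, the steroid 17-alpha-hydroxylase, changed by 2.20 ± 0.45 (adjusted p = 0.0017), a call lost with the beta-actin ratio (adjusted p = 0.067). Coq8a, a kinase-like protein of ubiquinone synthesis, went from -1.77 ± 0.12 to 0.18 ± 0.12 and Kmo, the kynurenine hydroxylase, from -1.05 ± 0.14 to 0.02 ± 0.14. Their changes were 1.95 ± 0.17 and 1.07 ± 0.21 (adjusted p = 7.7e-08 and 0.00091). Nrep, a small neuronal and regeneration-related protein, fell 21.9-fold at 24 h and was at -0.23 ± 0.31 at 120 h (change 4.22 ± 0.44, adjusted p = 7.7e-07), while Serpina6, the carrier of corticosteroids in blood, went from -2.16 ± 0.18 to -0.47 ± 0.18 (change 1.69 ± 0.25, adjusted p = 6.1e-05).

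The 8 genes classed as returned in part were called at both times in the same direction, with a called change towards vehicle. Since the class needs a call at 120 h, genes with an effect left there that was not called, such as Cyp8b1 and Serpina6 above, are not in it. The 120 h effect of Cyp8b1, -0.68, was no smaller than that of Plekhb1, -0.66, which is in the class. Lcn2, the iron-siderophore-binding acute phase protein lipocalin-2, had levels of 5.03, 6.06 and 7.48 in vehicle and 9.96, 11.56 and 11.85 in ANIT rats at 24 h. At 120 h the levels were 4.75, 5.84 and 6.45 against 6.96, 7.52 and 8.10. The groups stood apart at both times, with a 40.1-fold rise at 24 h and a 3.30-fold rise at 120 h (1.72 ± 0.36, adjusted p = 0.011), and the change was -3.60 ± 0.51 (adjusted p = 3.7e-05).

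In the other direction were Hacl1, which splits 2-hydroxy fatty acids in peroxisomes, Plekhb1, a membrane protein with a lipid-binding domain, and Cxcl12, the chemokine SDF-1. Their 24 h effects were -1.68, -1.34 and -1.02, and their 120 h effects -0.76 ± 0.16, -0.66 ± 0.11 and -0.51 ± 0.10 (adjusted p = 0.012, 0.0022 and 0.0084). All 6 ANIT rats were below all vehicle rats at both times for each of the 3 genes. Without the narrow arrays their 120 h calls were lost (adjusted p = 0.064, 0.051 and 0.098). The change of Cxcl12, 0.51 ± 0.15, was not called over the mean of its probe sets (0.25, adjusted p = 0.28) or with a common median, and it and that of Hacl1 were not called with the beta-actin ratio.

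Most sterol synthesis genes of the list rose at 24 h, and some were called below vehicle at 120 h. Of 20 measured genes, 17 were higher at 24 h (12.9% of all genes), 5 were lower at 120 h (1.51%) and the change was lower for 17 (11.0%). The median effect was 0.94 at 24 h and -0.34 at 120 h. Under the control level, the beta-actin ratio and without the narrow arrays the change was lower for 15, 10 and 15 genes, and 4, 2 and 1 were lower at 120 h. The vehicle rats themselves stood lower at 120 h than at 24 h, by 0.30 in the median gene of the list, which the change takes into account. Sqle, the squalene epoxidase, had levels of 5.83, 6.29 and 7.19 in vehicle and 8.61, 9.30 and 9.38 in ANIT rats at 24 h, and of 5.10, 5.51 and 6.26 against 4.54, 4.74 and 5.12 at 120 h. The ANIT group was the highest at 24 h and the lowest at 120 h, where 1 vehicle rat lay within its range.

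The change of Sqle, -3.59 ± 0.27 (adjusted p = 7.6e-09), was called under every alternative run. Its 120 h effect of -0.76 ± 0.19 was just past the threshold (adjusted p = 0.039). Leaving out 1 of the 120 h vehicle rats 1, 2, 3 or 5 ended that call (adjusted p = 0.058, 0.067, 0.076 and 0.11), as did leaving out 1 of the 120 h ANIT rats 3 to 6 (0.054, 0.10, 0.080 and 0.078), with effects between -0.78 and -0.62. It was also lost without the narrow arrays, with array weights, with the beta-actin ratio and with a common median (adjusted p = 0.16, 0.12, 0.088 and 0.058). Cyp51, lanosterol demethylase, went from 0.81 ± 0.19 to -0.89 ± 0.19 (adjusted p = 0.012 at 120 h) with a change of -1.70 ± 0.27 (adjusted p = 0.00013); without the narrow arrays its 120 h effect was -0.65 (adjusted p = 0.12), and with array weights -0.66 (adjusted p = 0.084). Neither its change nor its 24 h effect, -1.05 and 0.30 under the beta-actin ratio, was called there (adjusted p = 0.086 and 0.63). Idi1, isopentenyl diphosphate isomerase, and Insig1, which holds the sterol sensor in the ER, had 120 h effects of -0.60 ± 0.25 and -0.41 ± 0.15 that were not called (adjusted p = 0.27 and 0.19), with changes of -3.41 ± 0.36 and -1.89 ± 0.22. Fasn, fatty acid synthase, ended at 0.24 ± 0.20 after a 6.79-fold rise.

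Cyp1a2 was called in opposite directions at both times under every alternative run, whereas its relative Cyp1a1 was not called at 120 h. Both enzymes oxidise planar aromatic compounds and are induced through the aryl hydrocarbon receptor. Cyp1a2 had levels of 11.12, 11.35 and 11.54 in vehicle and 11.91, 12.23 and 12.30 in ANIT rats at 24 h, and of 10.54, 10.91 and 11.18 against 9.70, 9.95 and 10.42 at 120 h. The ANIT rats lay above all vehicle rats at 24 h and below them all at 120 h. The effect went from 0.85 ± 0.12 to -0.85 ± 0.12 (adjusted p = 0.00027 at 120 h), a change of -1.70 ± 0.17 (adjusted p = 6.1e-07). Cyp1a1 rose 10.1-fold at 24 h (3.34 ± 0.22) and stood at 0.38 ± 0.22 at 120 h (adjusted p = 0.44), with a change of -2.96 ± 0.31 (adjusted p = 7.7e-07).

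Other genes that rose and then passed below vehicle were Fabp2, a fatty acid binding protein of the intestine, Cavin3, a coat protein of caveolae, Slc3a2, the heavy chain of amino acid exchangers, and Eprs1, a transfer RNA synthetase. Fabp2 had levels of 5.54, 5.84 and 6.47 against 6.67, 7.32 and 7.47 at 24 h and of 5.75, 6.27 and 6.89 against 4.60, 5.07 and 5.81 at 120 h, so that the groups stood apart at 24 h and overlapped slightly at 120 h. Its effects were 1.3 ± 0.22 and -1.06 ± 0.22 (adjusted p = 0.0087 at 120 h). For Cavin3, Slc3a2 and Eprs1, all ANIT rats were above all vehicle rats at 24 h and below them at 120 h, with 120 h effects of -0.78 ± 0.14, -0.63 ± 0.12 and -0.41 ± 0.09 (adjusted p = 0.0030, 0.0048 and 0.013). The changes of all 4 genes were called, from -2.36 ± 0.31 for Fabp2 to -1.65 ± 0.12 for Eprs1. Without the narrow arrays the 120 h calls of Fabp2, Cavin3 and Slc3a2 were lost (adjusted p = 0.16, 0.098 and 0.12), and over the mean of its probe sets, of which 1 gave a change of 0.12, that of Eprs1 was (adjusted p = 0.10).

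In the opposite direction, Siglec5, a sialic acid receptor of myeloid cells, had levels of 5.84, 6.73 and 7.44 in vehicle and 4.96, 5.80 and 6.14 in ANIT rats at 24 h, and of 5.83, 6.49 and 6.81 against 7.56, 7.78 and 7.99 at 120 h. The groups overlapped at 24 h, and every ANIT rat was above every vehicle rat at 120 h. The effect went from -1.03 ± 0.23 (adjusted p = 0.0019) to 1.36 ± 0.23 (adjusted p = 0.0015), a change of 2.39 ± 0.32 (adjusted p = 2.0e-05), and all 3 calls held under every alternative run, the threshold of 0.01 included. Slc40a1, the iron exporter ferroportin of macrophages and hepatocytes, went from -0.35 ± 0.08 to 0.38 ± 0.08 (change 0.72 ± 0.12, adjusted p = 0.00021), and its other probe sets gave changes of 0.72 and 0.76. The 120 h call of Slc40a1 was lost with a common median (adjusted p = 0.083).

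Cd24, a surface protein of ductular and progenitor cells, had levels of 5.54, 5.66 and 5.84 against 5.01, 5.29 and 5.72 at 24 h and of 5.25, 5.44 and 5.68 against 6.03, 6.15 and 6.42 at 120 h. It was higher in all 6 ANIT rats than in any vehicle rat at 120 h (0.72 ± 0.10, adjusted p = 0.00041), and its change was 1.09 ± 0.15 (adjusted p = 2.2e-05). Its fall at 24 h, -0.38 ± 0.10, lost its call with the beta-actin ratio, a common median or without the narrow arrays (adjusted p = 0.073, 0.063 and 0.059). Dclk1, a kinase that marks tuft and progenitor cells in gut, went from -0.58 ± 0.12 to 0.56 ± 0.12 (adjusted p = 0.014 at 120 h), a call lost without the narrow arrays (adjusted p = 0.12), as its 24 h call was with the beta-actin ratio (adjusted p = 0.10). The probe set used gave a change of 1.15, and the others of Dclk1 gave 0.69, 0.28 and 0.60. Those others had 24 h effects of -0.22, -0.25 and -0.12 and 120 h effects of 0.47, 0.03 and 0.49.

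**Figure D4:**
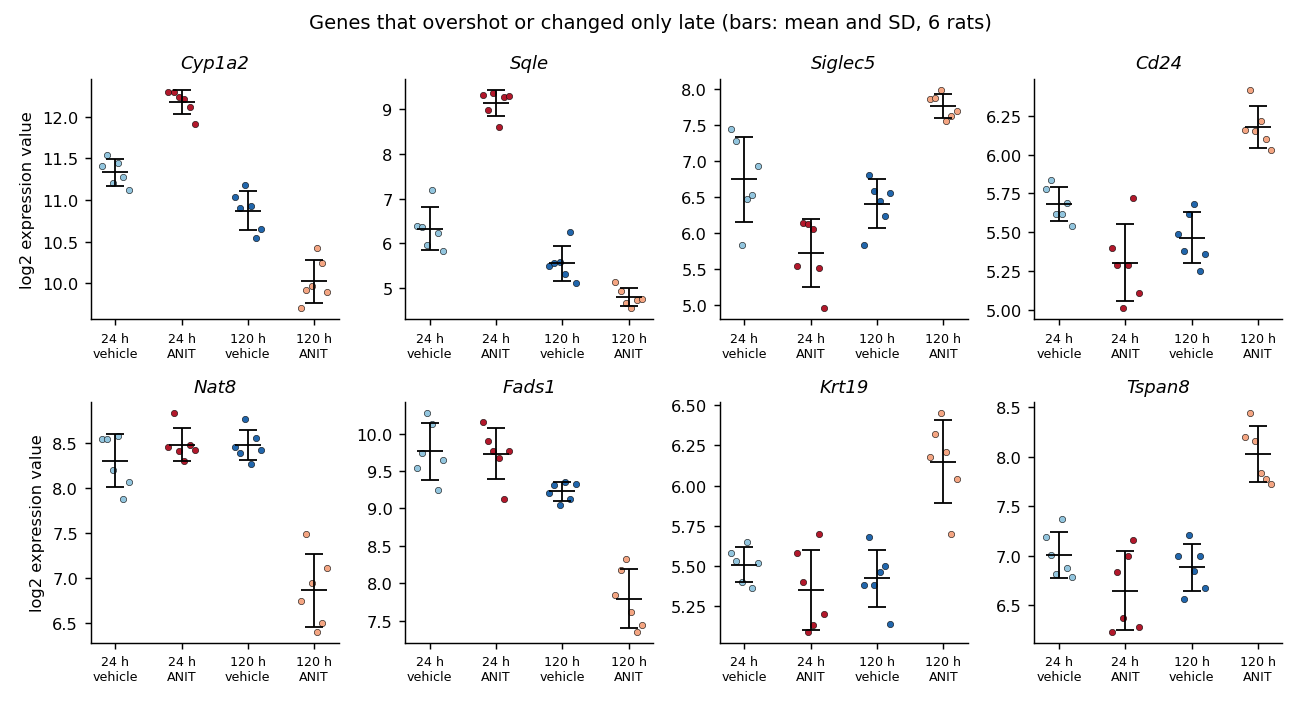
Log2 values of 8 genes in every rat (points) of the 4 groups, with the mean and SD of 6 rats as bars. In the upper row, the ANIT group of Cyp1a2 and Sqle is the highest at 24 h and the lowest at 120 h, and that of Siglec5 and Cd24 the reverse; in the lower row, the ANIT group at 120 h stands apart for Nat8, Fads1, Krt19 and Tspan8 while the 24 h groups overlap.

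Ductular genes were among those called higher at 120 h and not at 24 h. Krt19, the keratin of bile duct cells, had levels of 5.36, 5.52 and 5.65 in vehicle and 5.09, 5.30 and 5.70 in ANIT rats at 24 h, and of 5.14, 5.42 and 5.68 against 5.70, 6.20 and 6.45 at 120 h. The ANIT rats overlapped with vehicle at 24 h and lay above all of it at 120 h, with an effect of 0.73 ± 0.12 (adjusted p = 0.0015) and a change of 0.88 ± 0.17 (adjusted p = 0.0010; 0.051 with the beta-actin ratio). Tspan8, a tetraspanin of epithelial surfaces, had levels of 6.78, 6.94 and 7.37 against 6.23, 6.60 and 7.16 at 24 h and of 6.56, 6.93 and 7.21 against 7.73, 8.00 and 8.44 at 120 h. The groups of Tspan8 were separate only at 120 h, 2.21-fold apart (1.14 ± 0.16, adjusted p = 0.00029), and its change was 1.5 ± 0.23 (adjusted p = 0.00010). Its 24 h effect of -0.36 was called only when ANIT rat 5 of 24 h was left out (-0.46, adjusted p = 0.047).

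Over the list of 27 cholangiocyte and ductular genes, 4 were higher and 3 lower at 24 h (12.9% and 5.31% of all genes), and 5 were higher at 120 h (0.513% of all genes). The change was higher for 7 (3.33% of all genes) and lower for 3 (11.0% of all genes). The change was higher for 9 with the control level, 3 with the beta-actin ratio and 7 without the narrow arrays. The 5 cholangiocyte markers Krt19, Krt7, Epcam, Sox9 and Cftr averaged 4.55 to 4.90 in vehicle and 4.59 to 4.81 in ANIT rats at 24 h, and 4.55 to 4.87 and 4.81 to 5.28 at 120 h. Of those markers, 2 had a called change, Krt19 and Cftr.

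Single genes of matrix and immune cells were higher at 120 h. Postn, the matrix protein periostin, went from -0.24 ± 0.21 to 1.43 ± 0.21 (adjusted p = 0.00047), with levels of 3.59, 3.81 and 4.30 in vehicle against 4.87, 5.38 and 5.69 in ANIT rats at 120 h; the groups did not overlap there. Its change of 1.67 ± 0.30 was not called with the beta-actin ratio (adjusted p = 0.056). Of 41 stellate cell and matrix genes, 6 were higher and 3 lower at 24 h (12.9% and 5.31% of all genes). At 120 h, 2 were higher (0.513% of all genes), or 5 with the control level (1.65% of all genes). The change was higher for 8 and lower for 6 (3.33% and 11.0% of all genes), with no higher and 3 lower calls under the beta-actin ratio, where 7 higher had an unadjusted p under 0.05. The 6 markers Col1a1, Col3a1, Dcn, Lum, Pdgfrb and Des averaged 5.96 to 6.70 in vehicle and 6.57 to 7.23 in ANIT rats at 120 h, and 5.97 to 6.31 and 5.91 to 6.89 at 24 h.

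Col1a1, the chain of type I collagen, had an effect of 0.01 ± 0.24 at 24 h and 0.89 ± 0.24 at 120 h, with a change of 0.88 ± 0.34 (adjusted p = 0.081). Without ANIT rat 5 of 24 h that change was 1.15 (adjusted p = 0.0034) and without ANIT rat 1 of 120 h it was 1.0 (adjusted p = 0.040). The 120 h effect (adjusted p = 0.050) was called with array SD, quantile normalization, the mean of probe sets or without dim genes (adjusted p = 0.037, 0.029, 0.030 and 0.042), and without any one of the 24 h vehicle rats 1 and 5, the 24 h ANIT rats 1 and 5 or the 120 h ANIT rat 1 (adjusted p = 0.046, 0.047, 0.049, 0.0074 and 0.026).

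Gpnmb, a glycoprotein of lipid-laden and phagocytic macrophages, went from -0.08 ± 0.19 to 1.08 ± 0.19 (adjusted p = 0.0027 at 120 h; change 1.16 ± 0.27, adjusted p = 0.0050). The 5 macrophage markers Cd68, Lgals3, Gpnmb, Trem2 and Csf1r averaged 6.40 to 6.62 in vehicle and 6.51 to 6.88 in ANIT rats at 24 h, and 6.27 to 6.83 and 6.64 to 7.27 at 120 h. Of these markers only Gpnmb had a called change, and the changes of Lgals3 and Cd68, -0.83 and -0.15, had the opposite sign. Cd74, the class II invariant chain of antigen-presenting cells, rose at 120 h by 0.64 ± 0.14 (adjusted p = 0.014), with a change of 0.67 ± 0.20 (adjusted p = 0.025); without the narrow arrays neither was called (adjusted p = 0.062 and 0.063), and with a common median the change was not (adjusted p = 0.083). Of 21 lymphocyte and NK cell genes, the change was higher for 4 (3.33% of all genes), for 8 with the control level (6.24% of all genes) and for 3 with the beta-actin ratio. At 120 h 2 were called higher (0.513% of all genes), and none in limma without the narrow arrays, where 8 had an unadjusted p under 0.05. The part of these cell types in the results was not tested.

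Among hepatocyte products, Serpina7, the thyroxine-binding globulin, was 3.72-fold higher at 120 h (1.90 ± 0.33, adjusted p = 0.0025) and at 0.03 ± 0.33 at 24 h. Its levels were 6.67, 7.38 and 8.34 in vehicle against 8.45, 9.63 and 9.90 in ANIT rats at 120 h, which did not overlap, and 7.12, 8.03 and 9.11 against 7.15, 8.18 and 9.02 at 24 h, which did. Its change was 1.87 ± 0.47 (adjusted p = 0.0091). Zpr1, a zinc finger protein that binds growth factor receptors, rose by 0.84 ± 0.11 at 120 h (adjusted p = 8.5e-05), in all 6 ANIT rats above vehicle, and changed by 0.67 ± 0.15 (adjusted p = 0.0034). Its 5 probe sets gave changes from -0.03 to 0.67.

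More genes were lower than higher late, 61 against 27 with the groups alone but 42 against 63 with the control level in the model, so the direction of that split was not stable. Nat8, an N-acetyltransferase of cysteine conjugates, had levels of 7.88, 8.38 and 8.58 in vehicle and 8.30, 8.44 and 8.83 in ANIT rats at 24 h, and of 8.27, 8.44 and 8.77 against 6.40, 6.84 and 7.49 at 120 h. Both groups overlapped at 24 h, and every ANIT rat was below every vehicle rat at 120 h. The 120 h effect was -1.61 ± 0.16 (adjusted p = 2.3e-06), a 3.06-fold fall, and the change was -1.79 ± 0.22 (adjusted p = 7.3e-06).

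Of the fatty acid synthesis list, Fads1 and Elovl5 were called lower at 120 h and not at 24 h. Fads1, the delta-5 desaturase, had levels of 9.25, 9.70 and 10.27 against 9.13, 9.77 and 10.15 at 24 h and of 9.04, 9.26 and 9.35 against 7.35, 7.73 and 8.32 at 120 h. Its groups overlapped at 24 h only, and the 120 h effect was -1.44 ± 0.18 (adjusted p = 8.5e-05; change -1.41 ± 0.25, adjusted p = 0.00050). That change had an adjusted p of 0.051 under the beta-actin ratio. Elovl5, an elongase of polyunsaturated fatty acids, was at 0.26 ± 0.18 at 24 h and fell by 1.35 on the log2 scale at 120 h, with a change of -1.61 ± 0.25 (adjusted p = 0.00012). Of the 16 genes of that list, 4 were higher at 24 h (12.9% of all genes) and 1 lower, 3 were lower at 120 h (1.51% of all genes) and 6 had a lower change (11.0% of all genes), which 3 had with the beta-actin ratio. Fads2, another desaturase, was lower at both times, by -0.76 ± 0.20 (adjusted p = 0.0074) and -1.27 ± 0.20 (adjusted p = 0.00067), and Scd and Elovl6 were called at neither.

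Other late falls concerned secreted and metabolic proteins. Apoa4, an apolipoprotein, had a 120 h effect of -1.20 ± 0.14 (adjusted p = 7.0e-05) and a change of -1.01 ± 0.20 (adjusted p = 0.0014; 0.082 with the beta-actin ratio). Aldh1l2, the mitochondrial folate dehydrogenase, fell by 1.08 ± 0.14 and Inhbe, a hepatokine of the activin family, by 0.86 ± 0.15 (adjusted p = 0.00011 and 0.0018), and in both genes all 6 ANIT rats were below vehicle at 120 h. Abhd2, a lipid hydrolase, fell by 1.36 ± 0.21 (adjusted p = 0.00051).

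2 genes with male-predominant expression in rat liver were lower late as well. Cyp2a2 and Cyp3a2, described above and in the same list, were instead lower at 24 h and had returned, with 120 h effects of 0.04 and 0.07. Cyp2c11, the main male P450, had levels of 11.62, 11.85 and 12.07 against 11.34, 11.70 and 12.09 at 24 h and of 11.86, 11.99 and 12.13 against 9.64, 10.96 and 11.53 at 120 h. The 120 h groups stood apart, by -1.19 ± 0.20 (adjusted p = 0.0018), and the change was -1.02 ± 0.29 (adjusted p = 0.018). Both calls held at the 0.05 threshold under every alternative run, but the 24 h interval lay close to the 1.5-fold bound, and the late class of Cyp2c11 was kept in 12 of 34 settings and 6 of 24 that left out 1 rat. Obp3, an alpha-2u-globulin of a multigene family whose probes may not tell members apart, was lower by -1.90 ± 0.43 at 120 h (adjusted p = 0.016; change -2.36 ± 0.60, adjusted p = 0.0096), with overlapping groups; without the narrow arrays neither was called (adjusted p = 0.11 and 0.075), nor was the change with the beta-actin ratio (adjusted p = 0.20). Over the 18 listed genes that depend on growth hormone or differ by sex, the change was higher for 4 and lower for 4 (3.33% and 11.0% of all genes). These counts were 6 and 3 under the control level, 3 and 1 under the beta-actin ratio and 6 and 2 without the narrow arrays.

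Egr1, an immediate early transcription factor, had levels of 10.22, 11.00 and 11.93 in vehicle and 11.15, 11.54 and 11.89 in ANIT rats at 24 h, and of 9.87, 10.49 and 11.24 against 8.20, 8.60 and 9.17 at 120 h. It lay within the vehicle range at 24 h and below every vehicle rat at 120 h, a 3.80-fold fall (-1.93 ± 0.24, adjusted p = 8.5e-05), with a change of -2.43 ± 0.35 (adjusted p = 3.9e-05). Without vehicle rat 6 of 24 h the 24 h effect, 0.50 ± 0.24, became 0.69 and was called (adjusted p = 0.042). Of 20 immediate early genes, 7 were higher at 24 h (12.9% of all genes) and 3 were lower at 120 h (1.51% of all genes). A lower change was called for 8 (11.0% of all genes), with 1 under the beta-actin ratio and 3 without the narrow arrays. Under the beta-actin ratio 2 were higher at 24 h.

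A small set stayed changed at both times. Car3, a carbonic anhydrase abundant in male liver, had levels of 10.19, 11.07 and 11.53 against 8.26, 8.88 and 9.99 at 24 h and of 10.14, 10.66 and 11.20 against 8.40, 9.10 and 10.12 at 120 h. The groups stood apart at both times, with effects of -1.98 ± 0.28 and -1.51 ± 0.28 (adjusted p = 1.2e-05 and 0.0041), and the change of 0.47 ± 0.40 was not called (adjusted p = 0.43). Pex11a, a peroxisome division factor and PPAR-alpha target, was lower by 1.41 ± 0.18 and 1.13 ± 0.18, again with no overlap at either time (adjusted p = 2.4e-06 and 0.00080; change not called, adjusted p = 0.45). Inmt, an indolethylamine methyltransferase, was 3.08-fold lower at 24 h and 5.37-fold lower at 120 h (adjusted p = 0.0051 and 0.0014). These 3 genes kept both calls under every alternative run.

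Also lower at both times were Paqr9, a membrane receptor-like protein, Nox4, an NADPH oxidase, and Abcg5, which exports sterols into bile, with 120 h effects of -1.77 ± 0.23, -1.29 ± 0.26 and -0.93 ± 0.18 (adjusted p = 0.00011, 0.0076 and 0.0064). Without the narrow arrays the 120 h calls of Nox4 and Abcg5 were lost (adjusted p = 0.096 and 0.11), and without ANIT rat 3 of 120 h the change of Paqr9 became a call at -0.89 (adjusted p = 0.048). The 24 h call of Paqr9 was lost with the beta-actin ratio (adjusted p = 0.18), and with array SD in the model the change of Nox4 was called (1.10, adjusted p = 0.039). Of 19 fatty acid oxidation and ketogenesis genes, 12 were lower at 24 h and 6 at 120 h (5.31% and 1.51% of all genes), with medians of -0.42 and -0.38. The counts were 8 and 3 with the beta-actin ratio and 15 and 1 without the narrow arrays. The change of these fatty acid oxidation genes was higher for 2 and lower for 1 (3.33% and 11.0% of all genes).

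Abcc3, the basolateral exporter MRP3, Dmbt1, a mucosal scavenger protein, and Sri, the calcium-binding protein sorcin, were higher at both times. Their effects were 0.54 ± 0.15, 0.93 ± 0.22 and 0.72 ± 0.13 at 24 h and 0.77 ± 0.15, 0.98 ± 0.22 and 0.71 ± 0.13 at 120 h (adjusted p = 0.0058, 0.016 and 0.0041 at 120 h). The 24 h calls of all 3 were lost with the beta-actin ratio (adjusted p = 0.17, 0.15 and 0.19), and those of Abcc3 and Dmbt1 without the narrow arrays (0.075 and 0.20). That of Abcc3 was also lost after quantile normalization (0.077). The other probe set of Sri gave a change of -0.51, against -0.01 for the one used.

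Abcb11, the bile salt export pump, was higher at 24 h (0.45 ± 0.11) and at -0.07 ± 0.11 at 120 h, with a change of -0.53 ± 0.16 (adjusted p = 0.027). That call was lost with the control level, array SD, the beta-actin ratio, quantile normalization, array weights and without the narrow arrays (adjusted p = 0.16, 0.10, 0.55, 0.057, 0.060 and 0.28), and without any one of vehicle rat 3 and ANIT rats 1 and 3 of 24 h or vehicle rat 3 and ANIT rat 4 of 120 h (adjusted p = 0.053 to 0.054). Hmox1, heme oxygenase 1, was higher at 24 h (0.77 ± 0.18, adjusted p = 0.0025) and at 0.58 ± 0.18 at 120 h (adjusted p = 0.088), with every ANIT rat above vehicle there; its change of -0.19 ± 0.25 was not called, and the 24 h call was lost with the beta-actin ratio (adjusted p = 0.15). The 120 h effect was called without vehicle rat 5 of 24 h (adjusted p = 0.046), without the narrow arrays (0.021), with array weights (0.022), with array SD (0.047) and after quantile normalization (0.035). Over 22 Nrf2 targets, the list Hmox1 belongs to, 11 were higher at 24 h (12.9% of all genes) and 6 had a lower change (11.0% of all genes). These counts were 2 and 1 with the beta-actin ratio and 7 and 2 without the narrow arrays.

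Proliferation genes gave no settled change. Mki67, a marker of cycling cells, had effects of -0.57 ± 0.44 and 0.39 ± 0.44 and a change of 0.96 ± 0.62 (adjusted p = 0.30), which was -0.39 with the control level in the model. Vehicle rat 1 of 24 h had a level of 4.87 against a group median of 7.57, and without it the change was 1.42 (adjusted p = 0.035) and the 24 h effect -1.03 (adjusted p = 0.031). Of 36 mitosis genes, 3 were lower at 24 h (5.31% of all genes) and 4 had a higher change (3.33% of all genes), with 8 higher changes when that rat was left out and none with the beta-actin ratio in limma, where 4 had an unadjusted p under 0.05.

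Set side by side, the lists differed in where they ended. Median effects of cholesterol synthesis, immediate early and Nrf2 genes went from 0.94, 0.49 and 0.37 at 24 h to -0.34, -0.22 and -0.15 at 120 h. The 120 h medians of the last 2 lists were not stable, at -0.08 and -0.05 with the control level and -0.06 and 0.08 without the narrow arrays, while that of cholesterol synthesis was -0.26 and -0.22. Those of ER chaperones and ATF4 targets went to 0.03 and 0.01, and those of lymphocyte, ductular and mitosis genes from -0.16, -0.08 and -0.20 to 0.20, 0.23 and 0.11. Fatty acid oxidation genes had medians of -0.42 and -0.38, but of -0.50 and -0.28 with the control level and -0.50 and -0.20 without the narrow arrays. These medians stand beside 0.00 and -0.01 over all genes and were not tested against one another.

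**Figure D5:**
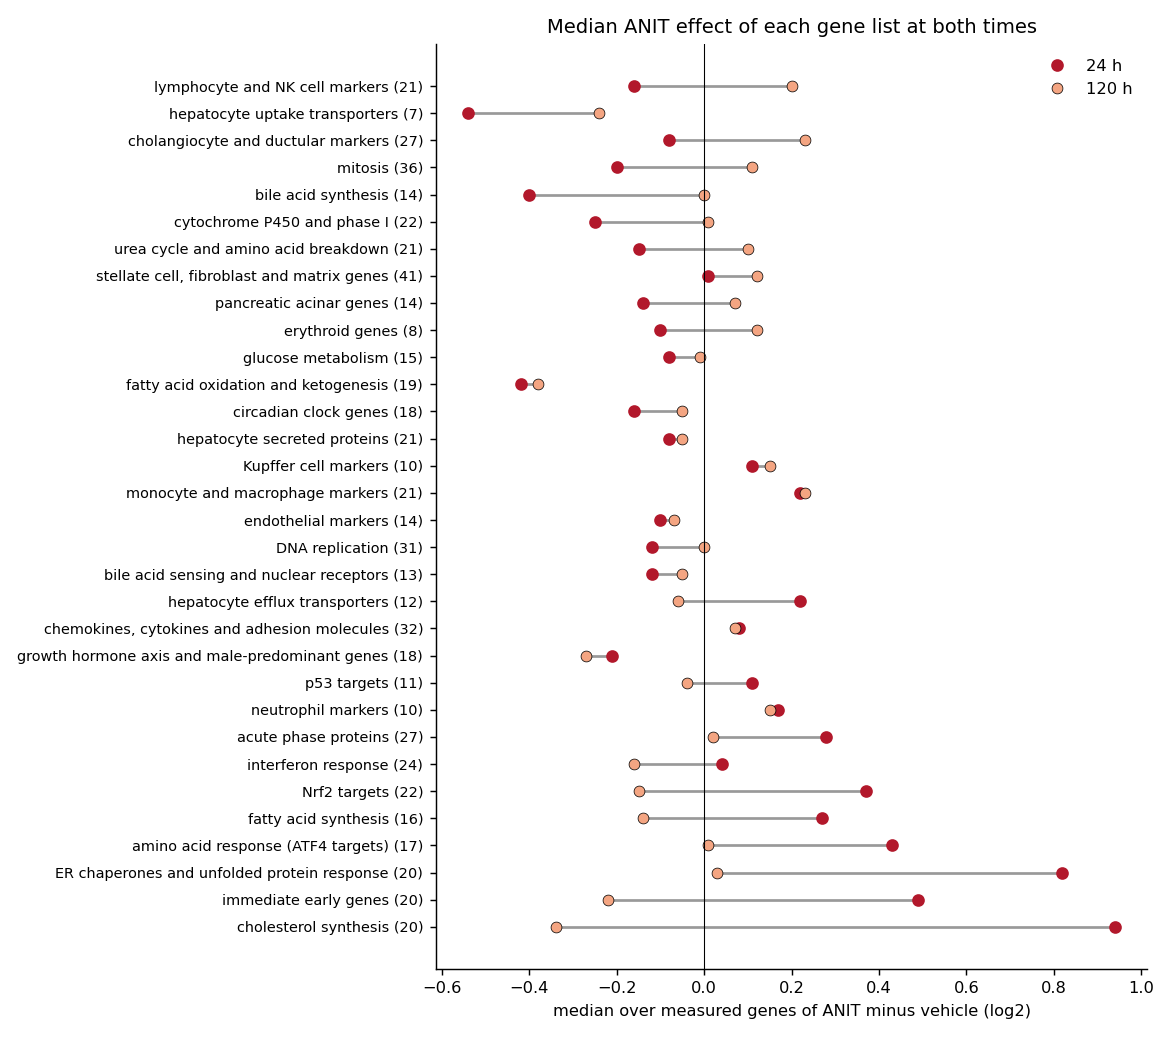
Median ANIT effect (log2) over the measured genes of each of 32 lists at 24 h (red points) and 120 h (orange points), with the number of genes in brackets and lists ordered by median change. Cholesterol synthesis runs from 0.94 to -0.34 and ER chaperones from 0.82 to 0.03, while fatty acid oxidation lies at -0.42 and -0.38 in this fit, and at -0.50 and -0.20 without the narrow arrays.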

How the data were processed

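Liver RNA of 24 rats was hybridised to 1-colour arrays, 1 per rat. The deposited log2 values come from RMA, with Partek also named, per the submitters' processing notes; for tool versions and scan batches, nothing was given in the sources used here. Array data carry no read depth, so the number of rats limits precision. Of 31139 probe sets, 19068 named 1 gene, 573 several and 11498 none, and the brightest single-gene probe set stood for each of 13438 genes. The 4 groups entered 1 limma fit (limma 3.58.1, R 4.3.3) with moderated variances and Benjamini-Hochberg adjustment over all genes; array measures had exact two-sided permutation tests. The procedure was tested on simulated data with independent noise for each gene and array. That simulation held no differences between arrays such as those of the narrow arrays, so it does not bear on them. Figures used Python 3.11.15 and matplotlib 3.10.9. Sequences are from RefSeq.

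Named genes were up to 8 per class and direction that kept their class with the control level, leading members of each gene list, and 8 set genes (Cyp7a1, Abcb11, Slc10a1, Nr0b2, Krt19, Mki67, Col1a1, Hmox1); the text names part of them. Genes and lists were chosen with earlier results of these data known. Alternatives were covariates for control level, array SD and beta-actin ratio, quantile normalization, a common median, the mean of probe sets, no dim genes, no narrow arrays, array weights, each rat left out, adjusted p under 0.01, and other tolerances. Replicate numbers follow deposit order and name rats only.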

Additional observations from a re-analysis of the deposited data

Results flagged for a closer look

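A rat stood far from the rest of its group, by Dixon's criterion, in 25 of 352 groups of 6 examined, and chance alone marks about 1 in 20 groups. Among vehicle rats at 24 h these were the lowest values of Asns (5.22), Kmo (9.03), Nrep (9.32), Slc40a1 (10.67), Aldh1l2 (9.89) and Mki67 (4.87) and the highest of Idi1 (8.31) and Apoa4 (11.84). Among ANIT rats at 24 h they were the lowest of Lcn2 (9.96), Fabp2 (6.67) and the log2 beta-actin ratio (2.98), and the highest of Nr1h4 (8.01), Postn (4.98), Nat8 (8.83), Abcc3 (9.63), Col1a1 (8.74) and Hspa5 (12.17). Among vehicle rats at 120 h they were the highest of Orm1 (12.60), Cyp1a1 (4.69), Fasn (7.40), Eprs1 (9.47) and Abcb11 (10.29). Among ANIT rats at 120 h they were the highest of Cyp3a2 (12.65), Nox4 (6.08) and Calr (10.98).

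The ANIT effect differed between the times for 1924 genes in limma. Among named genes with called effects of opposite sign, the change was -3.59 for Sqle, -2.36 for Fabp2, -2.13 for Cavin3, -1.70 for both Cyp51 and Cyp1a2, -1.68 for Slc3a2 and -1.65 for Eprs1, and 2.39 for Siglec5, 1.15 for Dclk1, 1.09 for Cd24 and 0.72 for Slc40a1. Of 11407 probe sets with no listed gene, control probe sets left out, which no comparison of genes used, 666 (5.84%) had a called change, 259 higher and 407 lower.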

How the results depend on the processing

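In the order change of the effect, 24 h, 120 h, vehicle times, ANIT times, returned, overshot, late, in part and both times, the main counts were 1924, 2451, 272, 1, 2832, 1037, 42, 88, 8 and 65. Leaving out 1 rat at a time gave ranges, in that order, of 1430 to 3148, 1829 to 3534, 152 to 343, 1 to 175, 2237 to 3078, 758 to 1717, 20 to 61, 45 to 112, 4 to 11 and 41 to 76. The highest counts for the change, the vehicle times and returned genes came without rat 1 of the 24 h vehicle group, and the lowest 120 h count without rat 5 of the 120 h vehicle group. Counts that moved by over 1.5 times follow. With the control level, 444 genes were called at 120 h, 68 overshot and 16 returned in part. With array SD the counts were 652 at 120 h, 3 between vehicle times, 117 overshot, 159 late, 27 in part and 124 at both times. With the beta-actin ratio they were 438 for the change, 907 at 24 h, 2 between vehicle times, 880 between ANIT times, 249 returned, 21 overshot, 4 late, 2 in part and 31 at both times. Quantile normalization gave 460 at 120 h, 17 between vehicle times, 74 overshot, 151 late and 19 in part. A common median gave 143 at 120 h, 18 overshot, 46 late, 4 in part and 38 at both times. The mean of probe sets gave 3 between vehicle times, and array weights 149. Without the narrow arrays the counts were 852 for the change, 1554 at 24 h, 0 between vehicle times in limma (603 at an unadjusted p under 0.05), 409 returned, 18 overshot, 50 late and 27 at both times, from fewer rats. At an adjusted p under 0.01, which is stricter by construction, they were 868, 1397 at 24 h, 83 at 120 h, 1766 between ANIT times, 484 returned, 5 overshot, 22 late, 1 in part and 22 at both times. A tolerance of 1.3-fold left 465 returned and 41 late. Apart from the fewer rats and the stricter limits, the cause was not tested. Of 8667 values of named genes under alternatives, 8540 kept their direction and call, 101 lost the call and 26 gained it, with no called value reversed. Many of these genes were named because they kept their class with the control level, so this tally does not measure stability over all genes. No paired analysis was possible because the replicate numbers are accession order only.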
